A study of Danio rerio with 6 samples.

Results

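The vacuolar proton ATPase (V-ATPase) genes of the zebrafish were taken by symbol, as every gene of the table whose name begins with atp6v0, atp6v1 or atp6ap. The rule uses no measured value and found 26 of 21392 genes, namely 9 of the membrane sector V0, 12 of the catalytic sector V1 and 5 of the accessory proteins. The embryos were wild type of the AB strain or mutant for mycn, a Myc family transcription factor gene, and were collected at 72 h after fertilization. The labels name neither the mutant allele nor the zygosity, and give no treatment for either group. Ribo-seq, the sequencing of mRNA fragments protected by ribosomes, was done on 2 samples of each genotype after the embryos had been dissociated with trypsin, and each genotype had 1 RNA-seq sample. The labels do not say whether replicates were separate clutches or pools of embryos, and the spread on which the p-values rest may therefore be technical.

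The V-ATPase is a rotary enzyme that pumps protons into lysosomes, endosomes, secretory and synaptic vesicles, and out of some epithelial cells. Its V1 sector hydrolyses ATP in the cytosol and turns a rotor, and its V0 sector carries the protons through the membrane. In zebrafish larvae, proton-secreting ionocytes of the skin are rich in the enzyme, and mutants of several of its subunit genes have pale pigment cells. The assembled enzyme on the lysosome also takes part in amino acid sensing by mTOR complex 1.

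Every value below is a translation efficiency, the deposited ratio of a gene's footprint FPKM (fragments scaled to gene length and library size) to its mRNA FPKM. A gene length used for both is divided out. Footprints and mRNA reads may not cover the same part of a gene, which would shift its level against those of other genes. Levels of different genes are set side by side with that limit. All 26 genes were above 0 in all 4 libraries and were therefore tested, among 17601 genes. Read counts were not analysed here and the depth behind a ratio is unknown. More footprints and less mRNA raise a ratio alike, and in whole embryos a change in the share of a cell type cannot be told apart from a change within cells. With 1 RNA-seq sample per genotype, the ratios of both libraries of a genotype may share an mRNA value, whose error would then not show in their spread. As a sign of precision, values found more than once in a library, to 9 significant digits, were marked as repeated, since ratios of small whole numbers repeat in this way. Of the 26 genes, 12 had no repeated value, against 2626 of all 17601 tested genes. The mutated gene itself, mycn, was at 0.446 and 0.302 in wild type and at 0.429 and 0.342 in mutants, a ratio that does not check the genotype.

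V-ATPase mRNAs had lower translation efficiencies than most genes, and the V0 genes had higher ones than the V1 genes in each of the 4 libraries. The median over the 26 genes was 0.484 and 0.474 in wild-type replicates 1 and 2 and 0.510 and 0.524 in mutant replicates 1 and 2. The medians of all tested genes in the same libraries were 0.762, 0.765, 0.779 and 0.779. In wild type 22 of the 26 genes had a mean below the median of 0.773 over all tested genes. Below the library's own median in all 4 libraries were 19 of the 26, as were 27.3% of all tested genes and 38.7% of those with no repeated value.

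**Figure D1:**
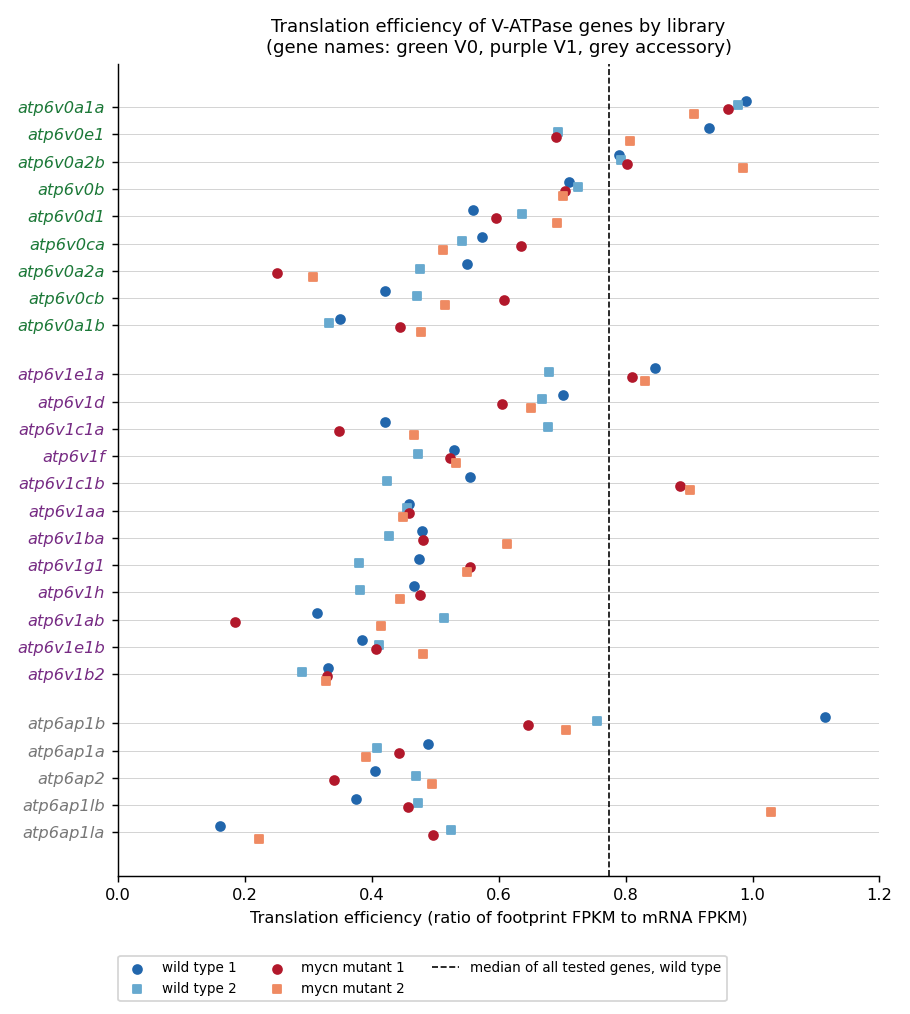
Translation efficiency (x axis, a ratio without unit) of the 26 V-ATPase genes (y axis, ordered within each sector by the wild-type mean); circles are replicate 1 and squares replicate 2, blue wild type and red mycn mutant, and the dashed line is the wild-type median of 0.773 over all tested genes. Most genes lie to the left of the line in both genotypes. The points of 11 of the 26 genes separate by genotype, as for 44.8% of all tested genes. Atp6v1c1b and atp6v0a2a are among the 11.

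The median over the 9 V0 genes was 0.574 and 0.636 in wild type and 0.635 and 0.692 in mutants. That over the 12 V1 genes was 0.471 and 0.441 in wild type and 0.478 and 0.506 in mutants. The V0 median was thus 1.22 and 1.44 times the V1 median in wild type, and 1.33 and 1.37 times in mutants. By these medians over genes, the mutant values lay between those of the wild-type libraries. Between 7 and 8 of the 9 V0 genes were above the V1 median of their library. The sectors nevertheless overlapped. In wild type the V0 gene atp6v0a1b had one of the lowest mean ratios of all 26 genes and the V1 gene atp6v1e1a one of the highest. On the log2(value + 0.1) scale the wild-type difference between the sector medians was 0.33. It was 0.34 when paralogs of a subunit were first averaged and 0.35 over the 3 V0 and 6 V1 genes with no repeated value. In mutants the difference was 0.35 and 0.39, which became 0.17 and 0.31 with paralogs averaged and 0.41 and 0.12 over the genes with no repeated value. With paralogs averaged the wild-type libraries were at 0.33 and 0.35, so both mutant values lay below both wild-type values. Over the genes with no repeated value the wild-type libraries were at 0.34 and 0.31, between the mutant values. Genes of 1 complex are not replicates, so this difference was given no test. The 5 accessory genes had medians of 0.405 and 0.473 in wild type and 0.457 and 0.496 in mutants, which is near the V1 level.

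**Figure D2:**
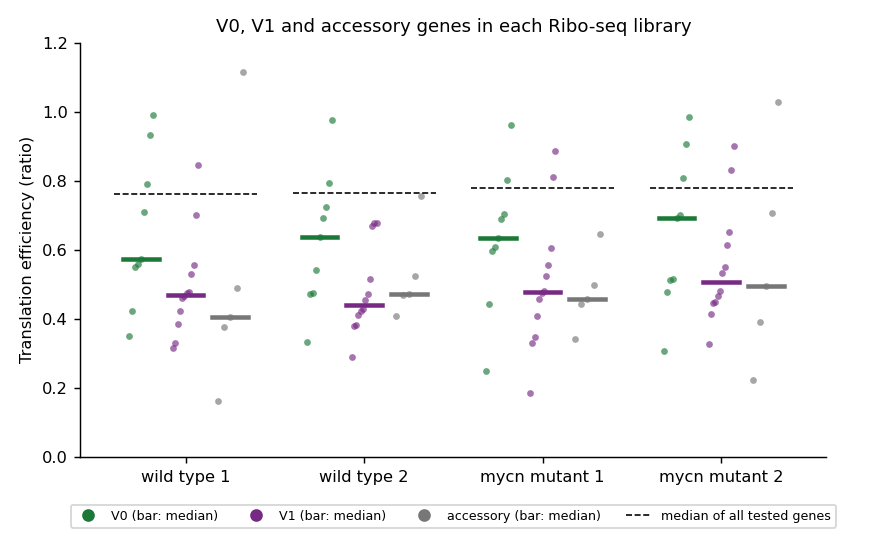
Translation efficiency (y axis, a ratio) of each V0 (green), V1 (purple) and accessory (grey) gene in the 4 Ribo-seq libraries (x axis); points are genes, thick bars the medians of the sector and dashed lines the median of all tested genes in that library. The V0 bar is above the V1 bar in each library (0.574 over 0.471 in wild-type replicate 1, 0.692 over 0.506 in mutant replicate 2), and the V0, V1 and accessory bars are below the dashed line.

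In mycn mutants no V-ATPase gene passed the test (limma on log2(value + 0.1), Benjamini-Hochberg adjustment over all 17601 genes), and neither did any other gene (0% called, smallest adjusted p = 0.101). At an unadjusted p under 0.05 there were 2 of the 26 genes, atp6v1c1b and atp6v0a2a, beside 11.5% of all tested genes. Of the 26 genes 15 had a higher and 11 a lower value in mutants, with a median log2 fold of 0.066 beside 0.013 over all tested genes. Without wild-type replicate 2 that median was -0.0061, and without mutant replicate 2 it was 0.022. The libraries of the genotypes did not overlap for 11 of the 26 genes, as for 44.8% of all tested genes. They were higher in mutants for 6 genes (23.1% of all tested genes) and lower for 5 (21.6%). Among the 12 V-ATPase genes with no repeated value 4 did not overlap, beside 51.9% of the 2626 tested genes of that kind.

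The folds of V-ATPase genes were narrower in spread than those of the whole table, which is a description and was given no test. The added 0.1 shrinks folds of low ratios more. The median wild-type mean was 0.473 for the V-ATPase and 0.773 for all tested genes, and the part of this shrinkage in the spread was not tested. A log2 fold of at least 0.5 in either direction was seen for 3 of the 26 genes and for 30.2% of all tested genes. The 3 were atp6v1c1b, atp6v0a2a and atp6ap1lb, which had 2, 3 and 2 repeated values among their 4. Among the 12 V-ATPase genes with no repeated value no log2 fold reached that size, beside 8.38% of the 2626 tested genes of that kind, and the folds ran from -0.40 to 0.31. A log2 fold within 0.15 of 0 was seen for 15 of the 26 genes (57.7%), for 28.2% of all tested genes and for 46.8% of those with no repeated value. The SD over the log2 folds was 0.30 for the 26 genes, 0.61 for all tested genes and 0.34 for tested genes with no repeated value. Over the gene lists given below it ran from 0.19 (neuron and synapse markers) to 0.72 (leukocyte and osteoclast markers).

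**Figure D3:**
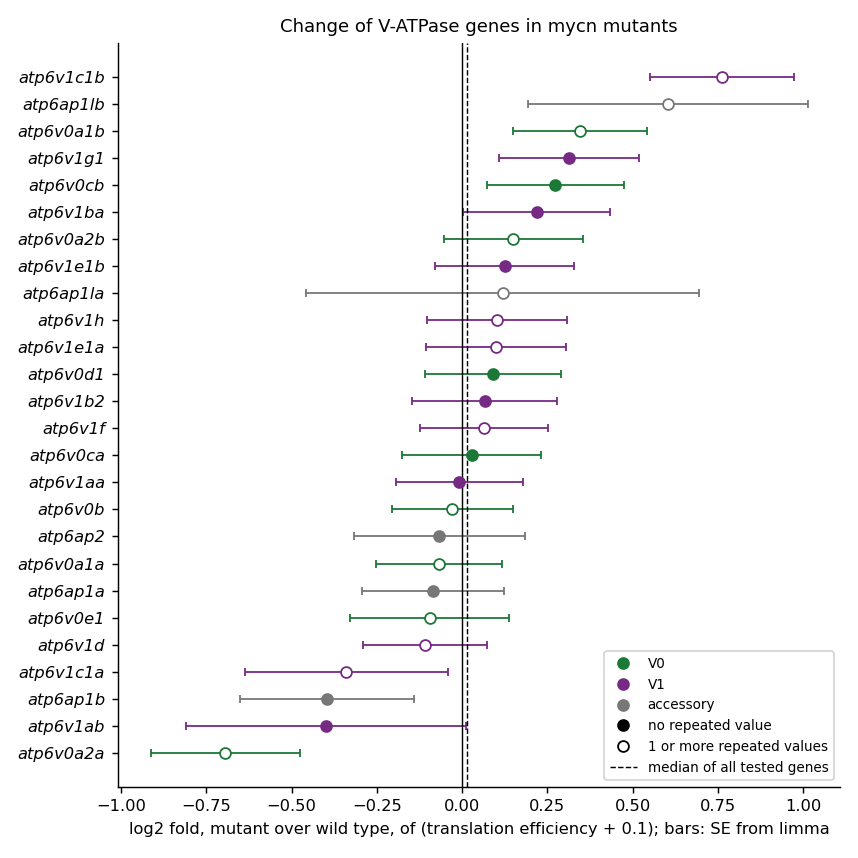
Log2 fold of mutant over wild type on the log2(translation efficiency + 0.1) scale (x axis) for the 26 V-ATPase genes (y axis, ordered by fold), with the standard error from limma as bars; colours give the sector, filled points are genes with no repeated value and open points genes with at least 1. The folds run from -0.69 for atp6v0a2a to 0.76 for atp6v1c1b, 15 of 26 lie within 0.15 of 0, and the points farthest from 0 on both sides are open.

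The medians of both sectors lay close to 0 in this comparison. Of the 9 V0 genes 5 had a higher and 4 a lower value in mutants, with a median log2 fold of 0.028, which was -0.0063 without wild-type replicate 2 and -0.0027 without mutant replicate 2. Of the 12 V1 genes 8 were higher and 4 lower, with a median of 0.084, which was 0.136 without wild-type replicate 1 and -0.0099 without wild-type replicate 2. Of the 5 accessory genes 2 were higher and 3 lower, with a median of -0.067, which was 0.022 without wild-type replicate 2. The V0 median minus the V1 median was -0.055, which was 0.0036 without wild-type replicate 2 and -0.136 when paralogs of a subunit were averaged. These medians were given no test.

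The a subunit of V0 lines the path of the protons and directs the enzyme to its membrane, and the 4 genes that encode it here spanned most of the range of the family. The ratio of atp6v0a1a was 0.990 and 0.977 in wild type and 0.961 and 0.908 in mutants. That of its paralog atp6v0a1b was 0.350 and 0.333 in wild type and 0.444 and 0.478 in mutants. The wild-type mean of atp6v0a1a, 0.983 ± 0.00988 (SD, n = 2), was above that of 67.7% of tested genes and that of atp6v0a1b, 0.341 ± 0.0119, above 6.84%, so that these paralogs stood at opposite ends of the V0 sector. Both mutant values of atp6v0a1b were above both wild-type values, and the log2 fold was 0.35 (SE 0.196, adjusted p = 0.571 with limma).

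The second pair of a subunit genes had folds of opposite sign. The ratio of atp6v0a2a was 0.551 and 0.475 in wild type and 0.250 and 0.308 in mutants. Its log2 fold of -0.69 was the lowest among the 26 genes (SE 0.218, limma adjusted p = 0.395), and the mutant mean was 0.544 times the wild-type mean. It had 3 repeated values. The ratio of atp6v0a2b was 0.789 and 0.793 in wild type and 0.802 and 0.985 in mutants (log2 fold 0.15, SE 0.203, adjusted p = 0.814), with 2 repeated values. The fold of atp6v0a2b was 0.016 without mutant replicate 2.

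The c and c'' subunits form the ring of proteolipids that turns in the membrane. The ratio of atp6v0ca, for the c subunit, was 0.574 and 0.543 in wild type and 0.635 and 0.513 in mutants, so the mutant values enclosed the wild-type ones. That of its paralog atp6v0cb was 0.422 and 0.472 in wild type and 0.608 and 0.516 in mutants, which do not overlap, and the log2 fold was 0.27 (SE 0.201, adjusted p = 0.656 with limma). Neither gene had a repeated value. The c'' gene atp6v0b was among the steadiest of the family, at 0.711 and 0.725 in wild type and 0.704 and 0.701 in mutants. It had 2 repeated values, and its genotypes did not overlap although the log2 fold was only -0.028.

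The remaining V0 genes overlapped between the genotypes. The d subunit couples the ring to the rotor of V1, and its gene atp6v0d1 was at 0.560 and 0.636 in wild type and at 0.596 and 0.692 in mutants. The e subunit is a small membrane protein, and its gene atp6v0e1 was at 0.931 and 0.693 in wild type and at 0.690 and 0.808 in mutants. Wild-type replicate 1 was the highest of these 4 values of atp6v0e1, and the difference between the wild-type libraries was larger than that between the genotype means.

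In V1 the A and B subunits alternate in a ring that binds ATP, with hydrolysis at sites in A. The ratio of atp6v1aa, a marker of proton-secreting ionocytes in zebrafish skin, was 0.459 and 0.455 in wild type and 0.459 and 0.449 in mutants (log2 fold -0.0082, SE 0.186). These 4 values, none of them repeated, lay closer together than the wild-type pair of most other V-ATPase genes. Its paralog atp6v1ab was at 0.315 and 0.514 in wild type and at 0.185 and 0.414 in mutants, with replicate 1 lower than replicate 2 in both genotypes and a log2 fold of -0.40 (SE 0.411, adjusted p = 0.752 with limma), which was 0.027 without mutant replicate 1. Of the B genes, atp6v1b2 was at 0.331 and 0.290 in wild type and at 0.330 and 0.328 in mutants, the lowest wild-type mean of the family, above only 5.06% of tested genes. The other B gene, atp6v1ba, was at 0.479 and 0.428 in wild type and at 0.481 and 0.613 in mutants (log2 fold 0.22, SE 0.215, limma adjusted p = 0.741), and its fold was 0.071 without mutant replicate 2.

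The C subunit clamps the stator of V1 to V0 and leaves the enzyme when it comes apart, as known from yeast and insects, and its 2 genes had the highest and one of the lowest folds of V1. The ratio of atp6v1c1b was 0.555 and 0.424 in wild type and 0.885 and 0.901 in mutants. Both mutant values were far above both wild-type values. In mutants the mean of atp6v1c1b, 0.893 ± 0.0115 (SD, n = 2), was 1.82 times the wild-type mean of 0.490 ± 0.0929. Its log2 fold of 0.76 (SE 0.211, limma adjusted p = 0.361) was the largest of the family, and 5.99% of all tested genes had a smaller p. The ratio of atp6v1c1a was 0.422 and 0.677 in wild type and 0.348 and 0.466 in mutants, which overlap, and the log2 fold was -0.34 (SE 0.298, adjusted p = 0.708 with limma), or -0.051 without wild-type replicate 2. These genes had 2 and 3 repeated values.

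The stator is completed by the E, G and H subunits. The ratio of atp6v1e1a was 0.846 and 0.679 in wild type and 0.811 and 0.830 in mutants, the highest wild-type mean of V1, with all 4 values repeated. Its paralog atp6v1e1b was lower in each library, at 0.384 and 0.411 in wild type and at 0.407 and 0.481 in mutants. The G gene atp6v1g1 was at 0.475 and 0.380 in wild type and at 0.555 and 0.550 in mutants, without overlap and without repeated values. Its log2 fold of 0.31 (SE 0.205, limma adjusted p = 0.618) was the highest among the 12 genes of that kind, and it was 0.18 without wild-type replicate 2. The H subunit restrains ATP hydrolysis by free V1, and atp6v1h was at 0.466 and 0.381 in wild type and at 0.475 and 0.445 in mutants.

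The D and F subunits make up the shaft of the rotor. Their genes differed in level. The ratio of atp6v1d was 0.701 and 0.668 in wild type and 0.605 and 0.651 in mutants, which do not overlap, although the log2 fold was only -0.11 (SE 0.182, limma adjusted p = 0.854). That of atp6v1f was 0.529 and 0.472 in wild type and 0.523 and 0.532 in mutants.

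The accessory proteins were the least reproducible group. Atp6ap1 binds V0 during assembly, and of its 2 genes atp6ap1b was at 1.11 and 0.756 in wild type and at 0.646 and 0.705 in mutants. Both mutant values of atp6ap1b were below both wild-type values, but the log2 fold of -0.40 (SE 0.254, limma adjusted p = 0.612) was smaller than the 0.504 between the wild-type libraries on the same scale. It was -0.14 without wild-type replicate 1. The ratio of atp6ap1a was 0.488 and 0.409 in wild type and 0.443 and 0.391 in mutants. The gene atp6ap2, which encodes the (pro)renin receptor, was at 0.405 and 0.471 in wild type and at 0.341 and 0.496 in mutants.

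The atp6ap1-like genes had the largest differences between the mutant replicates, and atp6ap1la also that between the wild-type replicates. That of atp6ap1la was 0.161 and 0.525 in wild type and 0.497 and 0.222 in mutants, and that of atp6ap1lb 0.375 and 0.473 in wild type and 0.457 and 1.03 in mutants. The log2 fold of 0.60 of atp6ap1lb (SE 0.410, limma adjusted p = 0.631) rested on mutant replicate 2 and was 0.093 without it. On the log2(value + 0.1) scale, replicates of a genotype differed by a median of 0.269 (wild type) and 0.435 (mutant) over the 5 accessory genes. These medians were 0.136 and 0.090 over the V0 and V1 genes, and 0.298 and 0.309 over all tested genes.

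Within a library, the ratio of a gene to that of its paralog removes any scaling of the whole library, and 9 paralog pairs were compared in this way. In 5 pairs the same paralog was the higher one in all 4 libraries. These were atp6v0a1a over atp6v0a1b, atp6v0a2b over atp6v0a2a, atp6v1ba over atp6v1b2, atp6v1e1a over atp6v1e1b and atp6ap1b over atp6ap1a. Atp6v0a1a was 2.83 and 2.94 times atp6v0a1b in wild type, and 2.16 and 1.90 times in mutants. Atp6v1e1a was 2.20 and 1.65 times atp6v1e1b in wild type, and 1.99 and 1.73 times in mutants, so this distance did not separate the genotypes.

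The largest differences between genotypes in these comparisons were in the C and a2 pairs. Atp6v1c1b was 1.32 and 0.626 times atp6v1c1a in wild type, and 2.55 and 1.93 times in mutants, a difference of 1.29 on the log2 scale. On the same scale, atp6v0a2b exceeded atp6v0a2a by 0.52 and 0.74 in wild type and by 1.68 in both mutant libraries, a difference of 1.05. The 2 mutant values of this pair were equal to 9 significant digits. Ratios of small whole numbers can repeat in this way, so this equality was not taken as a sign of precise replicates. The genotypes did not overlap in 5 of the 9 pairs, beside 44.8% of all tested genes for single ratios. Each of the 5 had p = 0.333 in a two-sided exact permutation test over the 4 libraries, the smallest p that 2 against 2 allows, and 0.600 after Benjamini-Hochberg adjustment over the 9 pairs. The genes of the C and a2 pairs had 2 to 3 repeated values each. The part of counting error in these differences was not tested.

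**Figure D4:**
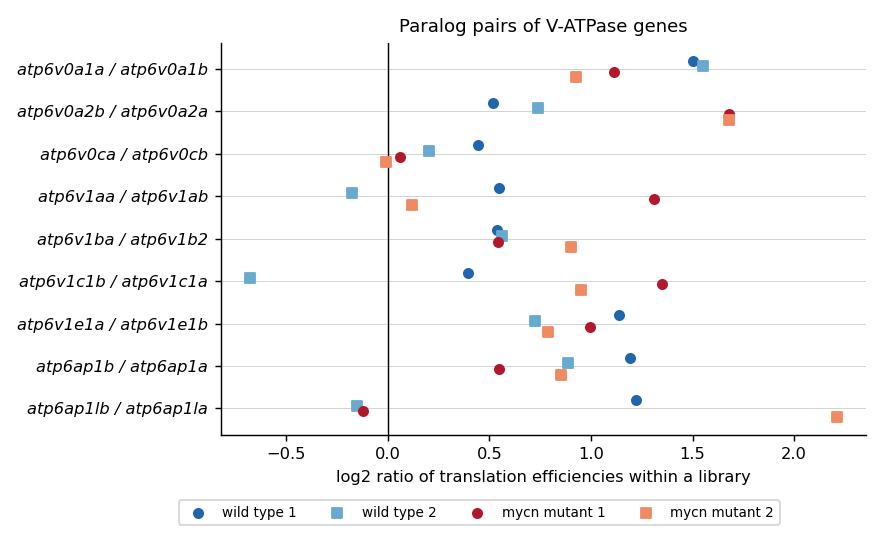
Log2 ratio of the translation efficiencies of 2 paralogs within a library (x axis) for 9 pairs of V-ATPase genes (y axis, first gene over second); circles are replicate 1 and squares replicate 2, blue wild type and red mycn mutant, and 0 marks equal ratios. The C pair is at 0.40 and -0.68 in wild type and at 1.35 and 0.95 in mutants, while the E pair lies between 0.72 and 1.14 in all 4 libraries.

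Genes that work with the enzyme but carry other symbols were taken from fixed lists. Of their members 0 passed the test, beside 0% of all 17601 tested genes. Of 9 tested a3 subunit genes and assembly or regulatory factors, 6 were higher and 3 lower in mutants, with a median log2 fold of 0.10. The a3 subunit gene tcirg1a was at 0.488 and 0.426 in wild type and at 0.741 and 0.728 in mutants (log2 fold 0.58, SE 0.188, limma adjusted p = 0.400). Together with the 4 genes above and tcirg1b (0.574 and 0.677 in wild type, 0.662 and 0.779 in mutants), the 6 a subunit genes had log2 folds in both directions. The assembly factor gene ccdc115 was at 0.214 and 0.435 in wild type and at 0.963 and 0.658 in mutants (log2 fold 1.13, SE 0.367, limma adjusted p = 0.402). Tcirg1a and ccdc115 each had at least 1 repeated value, and 3 of the 9 genes had none.

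Genes of the lysosome, which the enzyme acidifies, had higher median ratios than the V-ATPase genes in each of the 4 libraries, a difference that was given no test. The 65 tested genes of lysosomal proteins had median ratios of 0.919 and 0.946 in wild type and 0.927 and 0.952 in mutants. Those of the V-ATPase were 0.484 and 0.474 in wild type and 0.510 and 0.524 in mutants. Of these 65, 30 were higher and 35 lower in mutants, with a median log2 fold of -0.064. The smallest p were those of the granulin gene grna, at 1.29 and 1.25 in wild type and 0.475 and 0.390 in mutants (limma adjusted p = 0.249), and of gla, which encodes alpha-galactosidase A, at 1.42 and 1.29 against 0.447 and 0.275 (adjusted p = 0.271). Grna and gla each had at least 1 repeated value, and 17 of the 65 genes had none. The 5 Ragulator genes, whose products hold the Rag GTPases on the lysosome beside the V-ATPase, had a median log2 fold of -0.045, with lamtor5 at 0.88 (SE 0.370, and 0.42 without wild-type replicate 2 or 1.35 without wild-type replicate 1) and lamtor3 at -0.42 (SE 0.191). The 6 genes of the TFEB family, transcription factors of lysosomal genes in mammals, had 5 higher values and 1 lower, that of tfeb at -0.14, and a median of 0.37. The libraries did not overlap for 2 of the 6, beside 44.8% of all tested genes. The members with the smallest p were tfe3a, with a log2 fold of 0.83 (SE 0.237), and mitfa, with 1.22 (SE 0.632), or 0.39 without mutant replicate 2. Tfe3a and mitfa each had at least 1 repeated value. Of the 6 TFEB family genes 1 had no repeated value, and of the 5 Ragulator genes 0.

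The mitochondrial ATP synthase, the related rotary enzyme, had 14 higher and 5 lower values among 19 tested genes, with a median log2 fold of 0.088 and an SD of 0.25 that was close to the 0.30 of the V-ATPase. Its genes with the smallest p were atp5mea, at -0.78 (SE 0.256), and the inhibitor gene atp5if1a, at 0.40 (SE 0.191). Its median ratio of 0.905 and 0.821 in wild type was above that of the V-ATPase, but its genes ranged from 0.376 to 4.69 in wild-type replicate 1. In wild type atp5f1b was at 0.455 and 0.459, atp5f1c at 0.479 and 0.506 and atp5f1d at 0.376 and 0.398. These lay near the V1 medians of 0.471 and 0.441, whereas atp5f1e was at 3.23 and 3.64. Atp5mea and atp5if1a each had at least 1 repeated value, and 9 of the 19 tested genes had none.

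Marker genes of ionocytes, pigment cells, leukocytes and osteoclasts, and neurons were read from fixed lists. The lists were not limited to the cells of these kinds that are rich in V-ATPase. A ratio of footprints to mRNA does not measure how many cells of a type there are. The folds below are therefore not changes in cell number, and the part of these cell types in the values above was not tested. The 18 ionocyte markers had 10 higher and 8 lower values and a median log2 fold of 0.080, with the transcription factor gene foxi3b at -0.73 (SE 0.270) and the anion exchanger gene slc4a1b at -0.63 (SE 0.296), which was -0.32 without wild-type replicate 2. The 13 pigment cell markers had 9 higher and 4 lower values and a median of 0.39, with the retinal pigment epithelium gene rpe65a at 1.05 (SE 0.245) and the channel gene trpm1b at 0.53 (SE 0.194). The 12 leukocyte and osteoclast markers had 8 higher and 4 lower values and a median of 0.30. Among them mpeg1.1 of macrophages was at -1.29 (SE 0.398) and the NADPH oxidase gene cybb at 1.60 (SE 0.530). Without 1 library these folds were as low in size as -0.79 (mpeg1.1, without mutant replicate 2) and 1.04 (cybb, without wild-type replicate 2). Ctsk stands in this list and in the lysosomal one. The 18 markers of neurons and synapses had 13 higher and 5 lower values and a median of 0.13, with the synaptic vesicle genes sv2a at 0.35 (SE 0.180) and syt1a at 0.28 (SE 0.230). The neuron and synapse list was the one whose median ratios, 0.522 and 0.548 in wild type and 0.573 and 0.574 in mutants, came nearest to those of the V-ATPase. No repeated value was found for 2 of the 18 ionocyte and 5 of the 13 pigment cell markers. The same held for 0 of the 12 leukocyte and osteoclast and 11 of the 18 neuron and synapse markers. Rpe65a, sv2a and syt1a were among these, while foxi3b, slc4a1b, trpm1b, mpeg1.1 and cybb each had at least 1 repeated value.

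**Figure D5:**
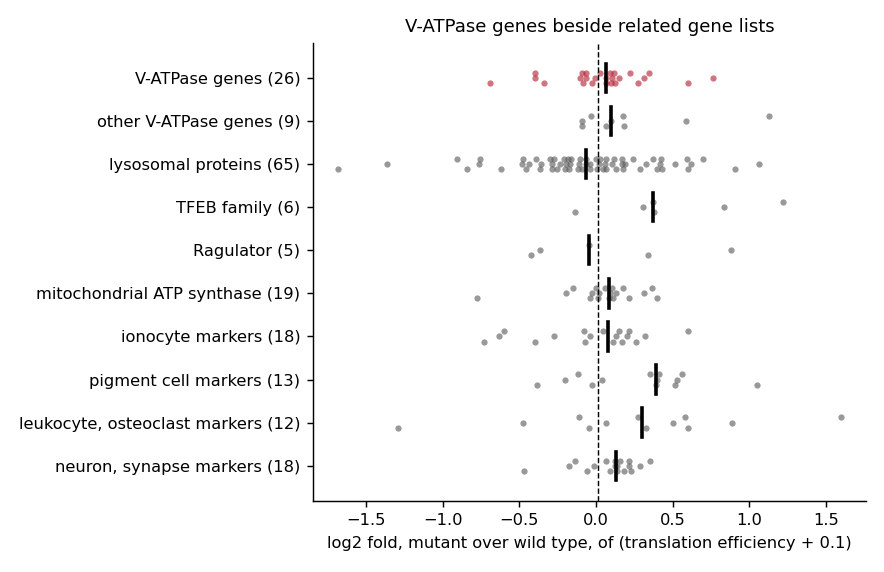
Log2 fold of mutant over wild type on the log2(translation efficiency + 0.1) scale (x axis) of the V-ATPase genes (red) and of related gene lists (grey), with the number of tested genes in parentheses; points are genes, thick bars medians and the dashed line the median of 0.013 over all tested genes. The V-ATPase bar is at 0.066 and the bars of the pigment cell and TFEB lists are at 0.39 and 0.37.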

How the data were processed

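The deposited values are ratios, 1 column per Ribo-seq library. Per the file headers they derive from FPKM, and they were read here as footprint FPKM divided by mRNA FPKM. The sources used here do not name the RNA-seq sample behind each denominator, nor an offset. The build was GRCz11 and the tools STAR, featureCounts and limma, per the submitters' processing notes, which give neither roles nor versions. Mutant was compared with wild type with limma (version 3.58.1, R 4.3.3) with an empirical Bayes trend on log2(value + 0.1), two-sided, over the 17601 genes above 0 in all 4 libraries, with a threshold of 0.05 on the adjusted p and 2 residual degrees of freedom per gene. A fold change on this scale understates that of genes with low ratios. The limma step was run on simulated data with independent normal noise in each library. The simulation had no shared mRNA value and no ratios of small whole numbers, so it does not test the p-values against either. All V-ATPase genes were named, with full values for those with the largest folds, the smallest p or a paralog, and 2 genes of the smallest p per list; tcirg1b and tfeb were added after their values were seen. The members and the 9 lists were chosen with earlier results of these data known. Lists held alternative symbols, matched through RefSeq synonyms. No outlier test was possible with 2 samples per group.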

Additional observations from a re-analysis of the deposited data

How the results depend on the processing

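No V-ATPase gene passed under any of the 13 alternatives planned, with smallest adjusted p from limma of 0.279 (only genes with no repeated value fitted) to 0.667 (without wild-type replicate 2). Over all genes, 6 passed with a pseudocount of 1, 177 with no filter on genes listed at 0 and 36 of 2626 (1.37%) when only genes with no repeated value were fitted. The deviations of same-numbered libraries correlated at 0.0097 across the 17601 genes and at 0.025 across the 2626 with no repeated value. Counting error can hide a shared origin, so these values do not tell whether the replicate numbers pair the libraries. With the replicate number as a block 0 genes passed and the smallest adjusted p of a V-ATPase gene from limma was 0.449. The median log2 fold of the V-ATPase was 0.022 with a pseudocount of 1, which shrinks folds by construction (to 0.35 for atp6v1c1b and -0.24 for atp6v0a2a), and 0.040 after median centring. It ran from -0.0061 to 0.074 when 1 library was left out. The V1 median was 0.032 with a pseudocount of 1 and ran from -0.0099 to 0.136. The wild-type difference between V0 and V1 was 0.13 with a pseudocount of 1, and 0.24 or 0.44 in a single wild-type library; its alternatives were chosen after seeing the data. Of the 26 genes 14 kept their sign under every alternative run. The other 12 turned only when 1 library was left out, with ranges of -0.103 to 0.159 for atp6v0ca, -0.0027 to 0.184 for atp6v0d1, -0.284 to 0.095 for atp6v0e1, -0.020 to 0.0039 for atp6v1aa, -0.826 to 0.027 for atp6v1ab, -0.0059 to 0.139 for atp6v1b2, -0.040 to 0.241 for atp6v1e1a, -0.0037 to 0.133 for atp6v1f, -0.015 to 0.220 for atp6v1h, -0.189 to 0.020 for atp6ap1a, -0.511 to 0.748 for atp6ap1la and -0.284 to 0.15 for atp6ap2. With 1 library left out, the lone library of a genotype is assumed to vary like the others. Depth is unknown, so counting error cannot be separated from other spread.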
